A study of Mus musculus with 8 samples.

Results

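The genes of mitochondrial complex I whose symbols begin with Nduf were followed in the hearts of newborn mice. Every symbol of the RNA-seq files that starts with Nduf was taken, and 44 such genes were found among 34275 gene symbols and 80155 loci. They comprise 36 nuclear subunits of the complex, 6 assembly factors (Ndufaf1 to Ndufaf6), and Ndufa4 and Ndufa4l2, which carry the name without being complex I subunits. The subunits divide into 7 core subunits, 9 accessory subunits of the matrix arm, 19 accessory subunits of the membrane arm, and Ndufab1, the acyl carrier protein. No locus carried the symbols Ndufb1, Ndufaf7 or Ndufaf8, and they are not analysed here.

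Complex I (NADH:ubiquinone oxidoreductase) is the L-shaped entry point of the respiratory chain. Its matrix arm takes electrons from NADH and passes them over a flavin and a row of iron-sulfur clusters to ubiquinone, while its membrane arm pumps protons across the inner mitochondrial membrane. The core subunits carry the catalysis, the accessory subunits surround and stabilise it, and the assembly factors build the complex without staying in it.

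Whole hearts of male Hsd:ICR(CD-1) mice, with the atrial appendages removed, were collected at postnatal day 1 (P1, 4 hearts) and day 7 (P7, 4 hearts). The labels name no treatment and no genetic modification, so age is the labelled difference between the groups. Each heart gave 1 library of RNA depleted of ribosomal RNA. The question was how heart transcripts differ between the newborn stage, when the heart can regenerate after injury, and the end of the first week. Levels are given as FPKM (fragments scaled to transcript length and to the mapped fragments of the library), so those of different genes are comparable per length. Stages were compared with limma on log2(FPKM + 1) over 43172 loci that reached 1 FPKM in at least 1 heart. A gene was called where its p, adjusted by Benjamini and Hochberg over these loci, was below 0.05 and the stage means differed by a factor of 1.5 or more. The labels number the replicates of a stage, and the study describes RNA of 4 hearts per stage. No litter is named, so the p-values measure the spread between these hearts. The ± values are SDs over the 4 hearts of a stage.

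The hearts carried the RNA of their labelled tissue. The 6 cardiomyocyte markers summed to 13224 to 25502 FPKM in P1 and 18249 to 27739 FPKM in P7, and none of them was called. Markers of other cells differed in both directions. The 5 fibroblast markers summed to 532 to 1101 FPKM in P1 and 1457 to 1767 FPKM in P7, with 3 of 5 called higher (Col1a1, Col3a1 and Dcn). The macrophage markers summed to 25.2 to 30.2 FPKM in P1 and 47.5 to 67.8 FPKM in P7, with 1 of 5 called higher (Lyz2). The endothelial markers summed to 78.2 to 133 FPKM in P1 and 112 to 173 FPKM in P7 (2 of 5 called higher, Cdh5 and Tie1). Those of smooth muscle and pericytes summed to 292 to 604 and 241 to 368 FPKM, with 1 of 5 called higher (Pdgfrb, means 8.10 and 18.6 FPKM). Of these 5, 4 had a positive log2 difference, among them Rgs5 (means 52.8 and 96.8 FPKM). The negative one, Acta2, had the largest means of the list (281 and 148 FPKM). Within these lists Emcn (log2 difference -0.43) and Acta2 (-0.90) had every P7 heart below every P1 heart, and neither was called (limma adjusted p = 0.244 and 0.126). The adipocyte markers reached 8.30 to 16.2 and 20.6 to 39.3 FPKM (1 of 4, Cidea), with Plin1 at 0 in some hearts of both stages. P7 replicates 2 and 4 stood apart in Ucp1, a gene of brown fat, with 3.08 and 10.3 FPKM against at most 0.147 FPKM in any other heart, and they were also the highest in Adipoq (1.203 and 2.75 FPKM) and Plin1 (0.769 and 1.41 FPKM). The red cell markers reached 314 to 959 and 919 to 1214 FPKM (0 of 4), and the skeletal muscle markers 269 to 997 and 544 to 1353 FPKM, mostly from Ckm, which heart muscle also expresses (0 of 2 tested). Their part in the results below was not tested. In bulk tissue, fewer cells of a type and less RNA per cell cannot be told apart. One unannotated locus held 35.7% of the FPKM total of P7 replicate 4, and unannotated loci held 33.1% to 72.7% of a heart's total.

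All 44 genes were measured at 1 FPKM or more in every heart, from 5.62 FPKM (Ndufa4l2 in P1 replicate 2) to 2126 FPKM (Ndufa5 in P7 replicate 3). One gene, Ndufa4l2, was called higher in P7, and 0 of the 44 were called lower. Among annotated tested loci 7.74% were called higher and 0.401% lower (8.14% either way), and among those with a mean of at least 9 FPKM 10.9% were called higher. Over all tested loci, unannotated ones included, 3.45% were called higher and 0.371% lower (3.82% either way). None of the 36 nuclear subunits was called in either direction by limma, while 10 of these subunits and 13 of the 44 genes had an unadjusted p under 0.05. Of annotated tested loci, 29.7% had such a p.

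The log2 difference between the stages was positive for 41 of the 44 genes and negative for 3, with a median of 0.37. Among annotated tested loci 67.6% were positive, with a median of 0.19. In 6 genes every P7 heart lay above every P1 heart (Ndufa4l2, Ndufaf5, Ndufs7, Ndufa11, Ndufa7 and Ndufb8), and in 0 every P7 heart lay below. All P7 hearts lay above all P1 hearts at 17.3% of annotated tested loci, at 21.5% of those with a mean of at least 9 FPKM, and all below at 2.69%. The 95% interval of the log2 difference included 0 for 31 of the 44 genes. It reached 1, a change by a factor of 2, for 19 of them, and lay between -1 and 1 for 24. The positive values depended on the scaling of the hearts. With the hearts scaled to the median ratio of annotated loci, the median of annotated tested loci moved from 0.19 to -0.01, the median of the 44 genes was 0.11, and 12 of them were negative. With this scaling 7.74% of annotated tested loci were called higher and 4.08% lower, and of the 44 genes again 1 higher and 0 lower.

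**Figure D1:**
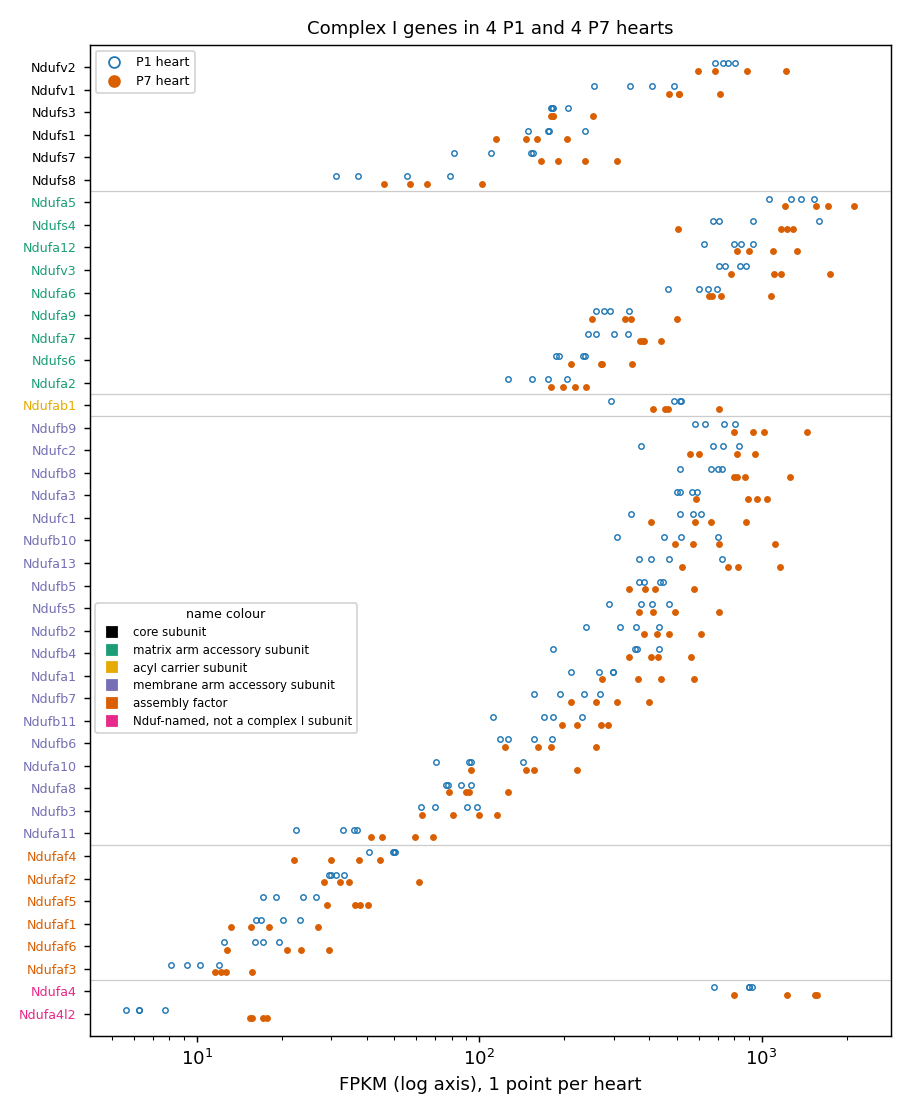
FPKM of 43 of the 44 complex I genes on a log axis, 1 open point for each P1 heart and 1 filled point for each P7 heart, ordered by role and by mean in P1. The P1 and P7 points overlap for 37 of these genes, Ndufa4l2 at the bottom is separated by the widest gap, and the assembly factors lie below nearly all subunits.

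Levels differed far more between the genes than between the stages. Averaged over the 8 hearts they ran from 11.5 FPKM (Ndufa4l2 and Ndufaf3) to 1484 FPKM (Ndufa5). The 6 assembly factors lay between 11.5 and 40.6 FPKM, and the 36 subunits between 42.9 and 1484 FPKM, so on this average no assembly factor reached the lowest subunit, Ndufa11. In P1 alone Ndufaf4 (47.6 FPKM) lay above Ndufa11 (32.0 FPKM). The order of the genes was kept across the stages. Across the 44 genes, mean log2 levels in P1 and P7 correlated with a Spearman coefficient of 0.98 (Pearson 0.99), a description over genes that share libraries and are not independent replicates.

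Promoters of 38 of the 44 genes were found in RefSeq (GRCm38.p6, 250 bases before to 50 after the start). They were searched on both strands for sequences that transcription factors of mitochondrial genes bind. The YY1 core AAGATGGCG stood in 5 of the 38 (13.2%), all of them subunits, against 1.64% of the promoters of 27025 genes. The NRF1 core GCATGCGC also stood in 5 of the 38 (13.2%), against 3.05% of all. The motif of estrogen-related receptors, AAGGTCA, was found in 3 (7.89%, against 5.38%) and the CCAAT box in 13 (34.2%, against 41.1%). The hypoxia response core, ACGTG or GCGTG, was found in 21 (55.3%, against 46.7%). A match is a string of letters and does not show binding. Ndufa4l2, Ndufa2, Ndufaf6, Ndufb9 and Ndufs1 were among those with no entry.

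The 5 YY1 cores are shown because they share strand and place. Each reads forward on the coding strand, begins 23 to 36 bases into the transcript, and has as its ATG the start codon that GENCODE M21 annotates. The windows of 30 bases are given 5′ to 3′ on the gene's strand, with the core in capitals.
Ndufs7 (chr10:80249463-80249492, plus strand): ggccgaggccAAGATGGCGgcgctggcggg
Ndufs4 (chr13:114388045-114388074, minus strand): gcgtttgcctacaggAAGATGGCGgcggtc
Ndufs6 (chr13:73328433-73328462, minus strand): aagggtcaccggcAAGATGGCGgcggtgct
Ndufa9 (chr6:126849096-126849125, minus strand): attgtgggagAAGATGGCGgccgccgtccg
Ndufc1 (chr3:51408914-51408943, minus strand): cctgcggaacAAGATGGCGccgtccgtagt
These 5 subunits had log2 differences of 0.85, 0.10, 0.36, 0.25 and 0.29 in this order, and only in Ndufs7 did the stages not overlap.

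The NRF1 cores are shown to set them beside the YY1 cores, with the matched letters of each window in capitals. In Ndufa11, Ndufaf4 and Ndufaf5 the core overlaps its own reverse complement, so that 10 letters are in capitals. The first base of the core lies at -113 relative to the start in Ndufaf4, which has a further match at base 2 outside the window shown, at -83 in Ndufa6, at -60 in Ndufa11, at -8 in Ndufa8 and at base 17 of the transcript in Ndufaf5.
Ndufa11 (chr17:56717692-56717721, plus strand): cctgcactgcGCGCATGCGCgcacgccttg
Ndufa6 (chr15:82354356-82354385, minus strand): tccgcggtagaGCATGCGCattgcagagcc
Ndufa8 (chr2:36049328-36049357, minus strand): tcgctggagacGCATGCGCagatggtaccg
Ndufaf4 (chr4:24897960-24897989, plus strand): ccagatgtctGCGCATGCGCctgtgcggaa
Ndufaf5 (chr2:140170652-140170681, plus strand): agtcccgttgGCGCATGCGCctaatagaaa
The log2 differences of these genes were 0.72, 0.36, 0.20, -0.53 and 0.71. The carriers of the same NRF1 sequence thus include the gene with the lowest value of the 44 (Ndufaf4) and 2 of the 6 whose stages did not overlap. For Ndufa11 the 250 bases before the start (chr17:56717512-56717761, plus strand) are given as context, with the same 10 letters in capitals.
Ndufa11 upstream: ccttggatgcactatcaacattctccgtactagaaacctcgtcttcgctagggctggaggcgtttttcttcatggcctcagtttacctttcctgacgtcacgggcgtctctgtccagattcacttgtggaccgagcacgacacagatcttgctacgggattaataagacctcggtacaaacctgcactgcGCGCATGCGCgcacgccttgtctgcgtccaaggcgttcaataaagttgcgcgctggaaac

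Among the 7 nuclear core subunits, 0 were called, 6 of the log2 differences were positive, and the median was 0.44 (0.18 after median-ratio scaling). Ndufs7 carries the last iron-sulfur cluster before ubiquinone. Its FPKM was 153, 110.3, 81.3 and 155 in P1 hearts and 166, 191, 307 and 236 in P7 hearts, so the stages did not overlap. The log2 difference of 0.85 (standard error 0.26, 95% interval 0.28 to 1.42) was not called (limma adjusted p = 0.10005, two-sided exact permutation test p = 0.0286, the smallest that 4 hearts against 4 allow). The locus is on chromosome 10, 80249121 to 80256794.

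Ndufv2, which holds an iron-sulfur cluster beside the flavin site, was the most abundant core subunit in both stages. Its FPKM was 803, 758, 686 and 727 in P1 and 682, 594, 1221 and 891 in P7. Without P7 replicate 3 the P7 hearts lay on both sides of the P1 hearts, and the log2 difference was 0.13 with all hearts and -0.06 without that one. Ndufv1, the subunit that binds the flavin and oxidises NADH, had means of 375 ± 99.6 and 549.8 ± 109 FPKM (SD, n = 4 each) and a log2 difference of 0.57 (limma adjusted p = 0.238). Ndufs8, another iron-sulfur protein, had 50.8 ± 21.5 and 67.7 ± 24.3 FPKM (SD, n = 4 each), a log2 difference of 0.44 (limma adjusted p = 0.437).

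The other core subunits had values near or below 0. Ndufs3, a subunit of the ubiquinone-reducing part, had FPKM of 181, 180.4, 183 and 207 in P1 and 183, 179, 253 and 182 in P7. All but 1 heart of each stage lay within 179 to 183, and the log2 difference was 0.07 (limma adjusted p = 0.835). Its transcript matches 2 pseudogenes, the closest at 98.6% identity, so the authors' counting may have split its reads. Ndufs1, the largest subunit and a carrier of iron-sulfur clusters, had 177, 175, 149 and 236 FPKM in P1 and 160.4, 115, 205 and 147 in P7. Its log2 difference of -0.24 was the only negative one among subunits on the deposited scale (limma adjusted p = 0.537). After median-ratio scaling it was -0.51 (limma adjusted p = 0.0361, ratio of means short of the threshold of 1.5), and 26 of the 36 subunits were positive. With GC correction it was -0.06. The locus of Ndufs1 spans 218 kb and overlaps 8 other annotated genes, Ino80d among them, and their part in its value was not tested.

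**Figure D2:**
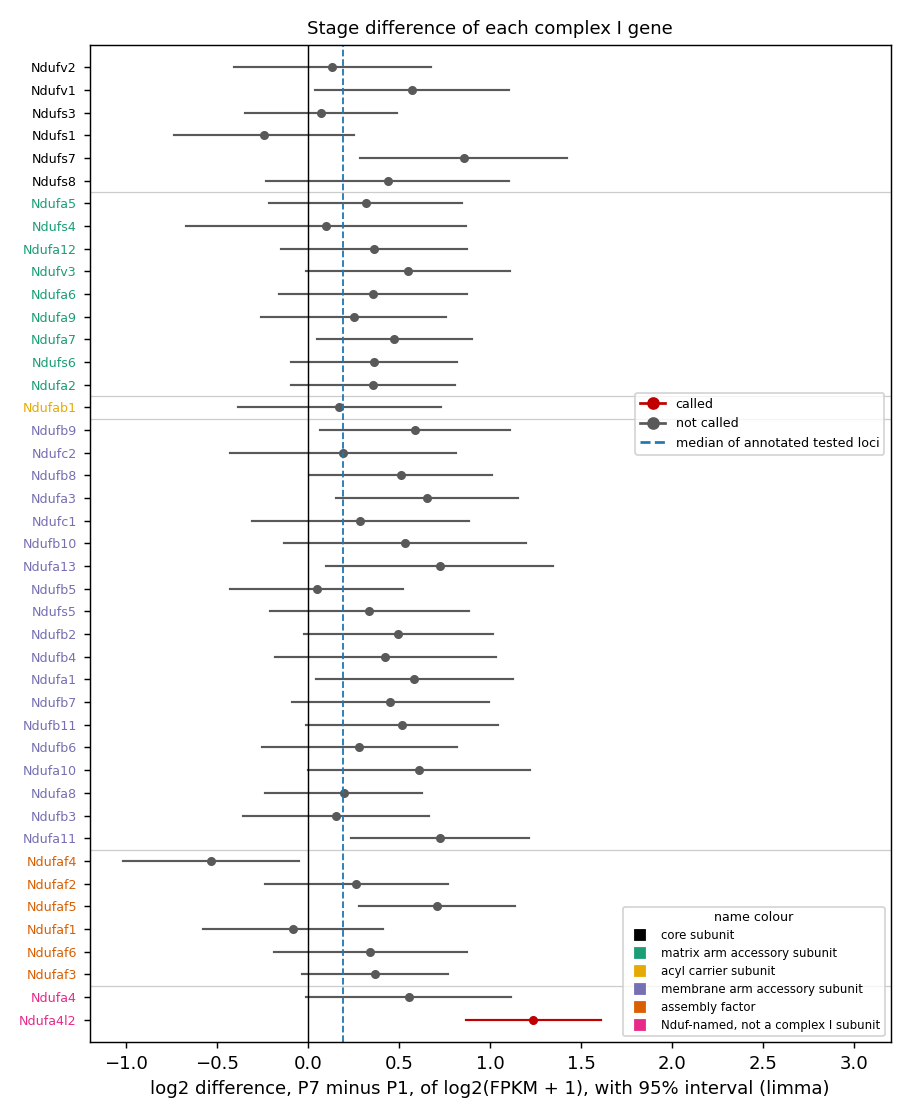
Log2 difference (P7 minus P1) of 43 of the 44 genes with its 95% interval from limma, grouped by role, with a solid line at 0 and a dashed line at the median of annotated tested loci, 0.19. One gene, Ndufa4l2, is drawn as called, and 31 intervals cross 0.

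All 9 accessory subunits of the matrix arm had positive log2 differences, from 0.10 to 0.55 with a median of 0.36, and 0 were called. After median-ratio scaling the median was 0.09 and 7 of the 9 were positive. Over the 8 hearts Ndufa5 and Ndufs4 were the most abundant, followed by Ndufv3. Ndufa5, a small subunit of the ubiquinone-reducing part, had 1379.8, 1267, 1539.7 and 1066 FPKM in P1 and 1564, 1213, 2126 and 1718 in P7, a log2 difference of 0.32 (limma adjusted p = 0.466). Ndufv3, a small subunit at the tip of the arm, had 841, 705, 744 and 878 FPKM in P1 and 1111, 780.4, 1749.8 and 1169.6 in P7. Only P7 replicate 2 reached down into the P1 range, and the log2 difference of 0.55 was not called (limma adjusted p = 0.281). Ndufa7 was the member of this group whose stages did not overlap, with 244 to 336 FPKM in P1 and 370.2 to 439 FPKM in P7 (log2 difference 0.47, limma adjusted p = 0.221). A pseudogene resembles Ndufa7 at 94.0% identity.

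Ndufs4, an accessory subunit whose loss causes a severe complex I deficiency in mice and humans, spread most within this group. Its FPKM was 930.2, 706, 675 and 1599 in P1 and 1169, 504, 1230.4 and 1287 in P7. The highest of the 8 values belonged to P1 replicate 4 and the lowest to P7 replicate 2. The means were 977 ± 429.8 and 1048 ± 366 FPKM (SD, n = 4 each), and the log2 difference of 0.10 (95% interval -0.67 to 0.87) leaves both directions within its interval. Ndufa12, Ndufa6, Ndufs6 and Ndufa9, which lie along the same arm, had log2 differences of 0.36, 0.36, 0.36 and 0.25. Ndufa2 had 0.36.

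Ndufab1, the acyl carrier protein that serves mitochondrial fatty acid synthesis and also sits in complex I, had 519, 516, 488 and 294 FPKM in P1 and 455, 414, 708 and 466 in P7. Apart from P1 replicate 4, the P1 hearts lay above all P7 hearts but replicate 3, while P1 replicate 4 was the lowest of all 8. The log2 difference was 0.17 with a 95% interval of -0.38 to 0.73 (limma adjusted p = 0.692), -0.09 after median-ratio scaling, and -0.02 without P1 replicate 4. A pseudogene matches its transcript at 99.8% identity.

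The 19 accessory subunits of the membrane arm all had positive log2 differences, from 0.05 (Ndufb5) to 0.72 (Ndufa11), with a median of 0.50. None was called. After median-ratio scaling the median was 0.23 and 15 of the 19 were positive. Of the 12 genes whose means differed by a factor of at least 1.5, 6 belonged to this arm (Ndufa1, Ndufa3, Ndufa10, Ndufa11, Ndufa13 and Ndufb9).

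Ndufa11, which joins the membrane arm to its neighbours in respiratory supercomplexes, was the least abundant subunit. Its FPKM was 32.9, 35.9, 22.4 and 36.8 in P1 and 45.2, 41.5, 68.7 and 59.5 in P7, and the stages did not overlap. The log2 difference of 0.72 (standard error 0.23, 95% interval 0.23 to 1.21) was not called (limma adjusted p = 0.105). The locus (chromosome 17, 56713932 to 56724248) overlaps Vmac, itself called higher (log2 difference 0.93, limma adjusted p = 0.0252), and its transcript matches a copy, Ndufa11b, at 94.5% identity. Ndufa13, also known as GRIM-19, had 470.0, 407, 369 and 725 FPKM in P1 and 759, 522, 1164 and 824 in P7, a log2 difference of 0.72 (standard error 0.29, limma adjusted p = 0.205). Its P1 replicate 4 lay above P7 replicate 2.

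Ndufa3 had 590.4, 513, 566 and 502 FPKM in P1 and 1047, 587, 965 and 893 in P7. P7 replicate 2 was within the P1 range and the other P7 hearts were above it (log2 difference 0.65, limma adjusted p = 0.153). The most abundant members of the arm over the 8 hearts were Ndufb9 and Ndufb8. Ndufb9 had means of 687 ± 101 and 1049.8 ± 278 FPKM (SD, n = 4 each), a log2 difference of 0.59 (limma adjusted p = 0.216). Ndufb8 had 704, 660.5, 724 and 516 FPKM in P1 and 798, 816, 1257 and 877 in P7. Its stages did not overlap, and the log2 difference of 0.51 was not called (limma adjusted p = 0.259). Its locus is joined with Sec31b and Gm20538 in the files, so the value is that of 3 symbols.

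Ndufb6 and Ndufb10, accessory subunits of the membrane arm whose proteins the study describes, were measured here as RNA. Ndufb6 had 156, 118, 181 and 127 FPKM in P1 and 179.7, 124, 258 and 162 in P7. The ranges largely coincided, and the log2 difference of 0.28 had a 95% interval of -0.25 to 0.82 (limma adjusted p = 0.514). Ndufb10 had 517, 453, 307 and 704 FPKM in P1 and 573, 492, 1113 and 709 in P7. Its log2 difference was 0.53, with a 95% interval of -0.133 to 1.199 (limma adjusted p = 0.367). The lowest value of the arm, 0.05, belonged to Ndufb5, with means of 409 ± 38.5 and 430.2 ± 104 FPKM (SD, n = 4 each).

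The 6 assembly factors had log2 differences from -0.53 to 0.71, with a median of 0.30 (0.05 after median-ratio scaling). None was called. Ndufaf5, which hydroxylates an arginine of Ndufs7, had 23.7, 19.1, 17.2 and 26.5 FPKM in P1 and 37.8, 28.9, 40.3 and 36.2 in P7. Every P7 heart exceeded every P1 heart, and the log2 difference was 0.71 (standard error 0.20, 95% interval 0.28 to 1.14), with a limma adjusted p of 0.0694. Without P1 replicate 4 the limma adjusted p was 0.0292, and in the other fits with a heart left out it lay between 0.0676 and 0.221. The locus is on chromosome 2, 140170646 to 140203689, overlaps no other annotated gene and has no close copy.

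Ndufaf4, which with Ndufaf3 helps to build the ubiquinone-reducing part, had the lowest log2 difference of the 44 genes. Its FPKM was 49.95, 49.4, 50.2 and 40.7 in P1 and 22.1, 29.8, 44.6 and 37.6 in P7. The P1 hearts other than replicate 4 lay within 49.4 to 50.2, above every P7 heart, and P1 replicate 4 lay below P7 replicate 3. The log2 difference of -0.53 (standard error 0.22, 95% interval -1.02 to -0.05) was not called (limma adjusted p = 0.227). Its partner Ndufaf3 had 8.11 to 12.0 FPKM in P1 and 11.6 to 15.7 FPKM in P7, a log2 difference of 0.37 (limma adjusted p = 0.310). Ndufaf1, a factor for the membrane arm, had 19.1 ± 3.25 and 18.4 ± 5.98 FPKM (SD, n = 4 each), a log2 difference of -0.08 (limma adjusted p = 0.836). Ndufaf2, a late factor related in sequence to Ndufa12, was with Ndufaf4 the most abundant of the assembly factors over the 8 hearts. In P7 Ndufaf5 (35.8 FPKM) lay above Ndufaf4 (33.5 FPKM). Ndufaf2 had 33.4, 31.1, 29.9 and 29.4 FPKM in P1 and 32.1, 28.3, 61.5 and 34.7 in P7, so P7 replicate 3 alone stood above the P1 range by more than a few FPKM. Ndufaf6 had a log2 difference of 0.34.

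Ndufa4l2 and Ndufa4 are related proteins. Ndufa4 is now counted as a subunit of complex IV, and Ndufa4l2 is known as a target of hypoxia-inducible factor that lowers complex I activity in cells short of oxygen. Ndufa4l2 rose from the lowest level of all 44 genes in P1. Its FPKM was 6.26, 5.62, 6.23 and 7.71 in P1 and 17.7, 15.7, 15.5 and 17.1 in P7. Every P7 heart lay far above every P1 heart, and the P7 hearts differed little among themselves. The means were 6.45 ± 0.887 and 16.5 ± 1.09 FPKM (SD, n = 4 each), a ratio of 2.56, and the log2 difference was 1.24 (standard error 0.17, 95% interval 0.87 to 1.61, limma adjusted p = 0.00593).

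The call of Ndufa4l2 was lost without P1 replicate 2 (log2 difference between 1.18 and 1.31 in all fits with a heart left out, limma adjusted p = 0.0588 in this one). It was also lost with a correction for transcript GC content (log2 difference 0.78, limma adjusted p = 0.0573). Its locus on chromosome 10 (127514939 to 127522444) spans the neighbouring Shmt2 as well, which has a value of its own. Shmt2, the mitochondrial serine hydroxymethyltransferase, had 11.1, 9.45, 5.41 and 12.7 FPKM in P1 and 15.2, 11.6, 17.8 and 13.3 in P7. Its log2 difference of 0.58 was not called (limma adjusted p = 0.232), and its stages overlapped. Whether the authors' counting used the strand is not given in the sources used here, so reads where the genes overlap cannot be told apart.

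Ndufa4 was far more abundant, with 927, 681, 904 and 899 FPKM in P1 and 1542, 800.4, 1574 and 1226 in P7. P7 replicate 2 was within the P1 range and the other P7 hearts were above it. The log2 difference was 0.55 (standard error 0.26, limma adjusted p = 0.279). A pseudogene resembles Ndufa4 at 93.1% identity. Ndufa4l2 amounted to between 0.676% and 0.857% of Ndufa4 per P1 heart, and to between 0.982% and 1.96% per P7 heart. These percentages did not overlap (two-sided exact permutation test, p = 0.0286, the smallest possible). They rest on the same Ndufa4l2 values as the call above. The share of all loci that separate on this scale was not computed.

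**Figure D3:**
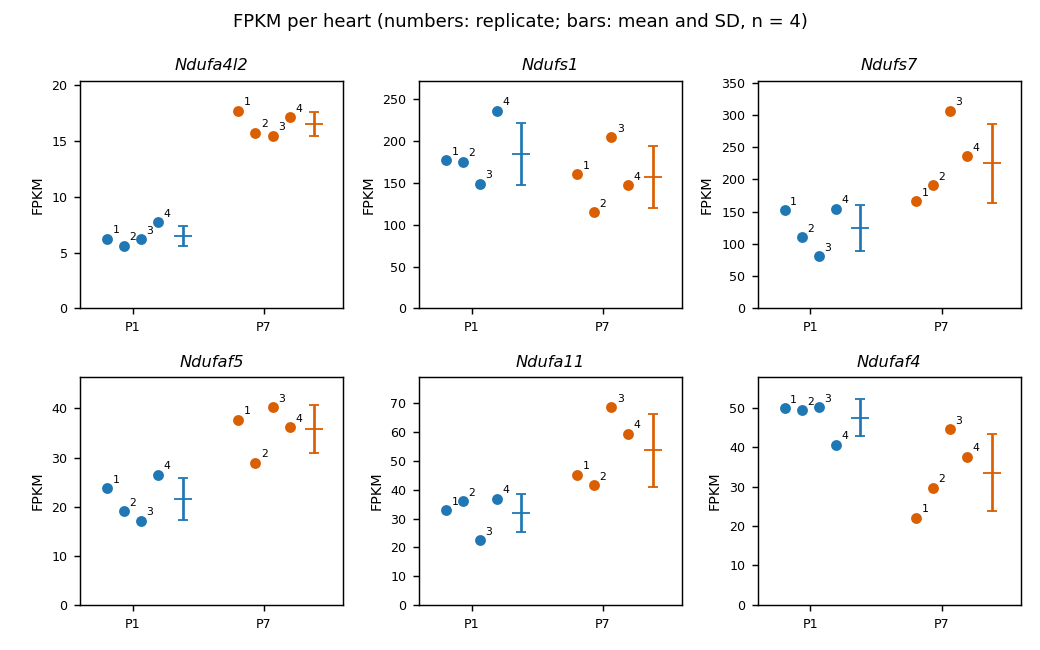
FPKM per heart of 6 genes, with points numbered by replicate and a bar for the mean and SD of 4 hearts, each panel starting at 0. The stages do not overlap for Ndufa4l2, Ndufs7, Ndufaf5 and Ndufa11, overlap for Ndufs1, and Ndufaf4 is lower on average in P7.

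The summed FPKM of the 36 nuclear subunits described the complex as a whole. It was 15421, 13735, 14553 and 14473 in the P1 hearts and 18013, 14424, 25917 and 19466 in the P7 hearts. P7 replicate 2 lay within the P1 range and the other P7 hearts above it. The means were 14546 ± 690.1 and 19455 ± 4801 FPKM (SD, n = 4 each), a ratio of 1.34. As a share of the FPKM of all annotated loci the subunits took 2.45% to 2.86% in P1 and 2.48% to 3.59% in P7, again with overlap. Relative to the summed nuclear subunits of complexes II to V, the sum lay between 0.368 and 0.448 at P1 and between 0.426 and 0.470 at P7.

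Expressed per 1000 FPKM of the subunit sum, Ndufa4l2 stood above all P1 hearts in all P7 hearts (P1 0.406 to 0.533, P7 0.597 to 1.09). Below the P1 hearts in all P7 hearts stood 5 genes, namely Ndufs1, Ndufv2, Ndufb5, Ndufaf1 and Ndufaf4. Among annotated tested loci on the same scale, 5.46% stood above and 13.7% below. On this scale Ndufs1 went from 12.7 ± 2.63 per 1000 at P1 to 8.08 ± 0.58 at P7 (SD, n = 4 each). Ndufaf4, set against the same sum, had 3.28 ± 0.34 and 1.74 ± 0.37 (SD, n = 4 each).

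The other complexes of oxidative phosphorylation were measured from lists of nuclear subunits. None of 4 complex II, 9 complex III, 12 complex IV and 15 complex V genes was called by limma, and 8 of these 40 had an unadjusted p under 0.05. Their median log2 differences were 0.18, 0.26, 0.40 and 0.30, beside 0.39 for the 36 complex I subunits, and after median-ratio scaling they were -0.08, -0.0044, 0.14, 0.04 and 0.13 in the same order. Values ranged within each complex. Uqcrc1, a core protein of complex III, had a log2 difference of 0.98 (limma adjusted p = 0.0887), while Cox7b of complex IV had -0.91 (limma adjusted p = 0.108). Of 10 assembly factors of complex I without an Nduf name, 0 were called, with a median of 0.16 and the largest value in Ecsit (0.65, limma adjusted p = 0.235).

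The mitochondrially encoded subunits could not be read separately. The files join mt-Nd1, mt-Nd2, mt-Nd4, mt-Nd4l and mt-Nd5 with ribosomal, transfer and other messenger RNAs of the mitochondrion in 1 locus of 26 symbols. That locus had 965, 932, 1217 and 432 FPKM in P1 and 854, 1239, 1697 and 1009 in P7, a log2 difference of 0.48 (limma adjusted p = 0.428). The locus of mt-Nd6 is shared with mt-Te (log2 difference -0.05, limma adjusted p = 0.925), and mt-Nd3 is listed at 0 in every heart.

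Individual hearts moved many of the genes together. P7 replicate 3 had the highest value of its stage in 39 of the 44 genes and the highest of all 8 hearts in 37. P7 replicate 2 had the lowest value of its stage in 35. The median of the 44 log2 values, each taken as a deviation from the gene's mean over the hearts, was 0.61 in P7 replicate 3 and -0.20 in P7 replicate 2, and from -0.28 to -0.07 in the P1 hearts. After median-ratio scaling P7 replicate 3 was still the highest (0.25) and P1 replicate 4 the lowest (-0.39).

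P1 replicate 4 differed from the other P1 hearts in both directions. It was above the other P1 hearts in 18 genes, below them in 17 and within their range in 9. Above were, among others, Ndufs4, Ndufs8 and Ndufa13, at 2.08, 1.91 and 1.75 times the mean of the other P1 hearts. Below were Ndufb4, Ndufc2 and Ndufb11, at 0.476, 0.501 and 0.577 times that mean. Among the core subunits 6 of 7 were above, and of the membrane arm genes Ndufb4, Ndufc2, Ndufb11, Ndufc1, Ndufb2 and Ndufs5 were the most below. The coefficient of variation within a stage was widest in P7 for Ndufaf2 (38.6%), and narrowest for Ndufaf2 in P1 (5.77%) and Ndufa4l2 in P7 (6.59%).

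**Figure D4:**
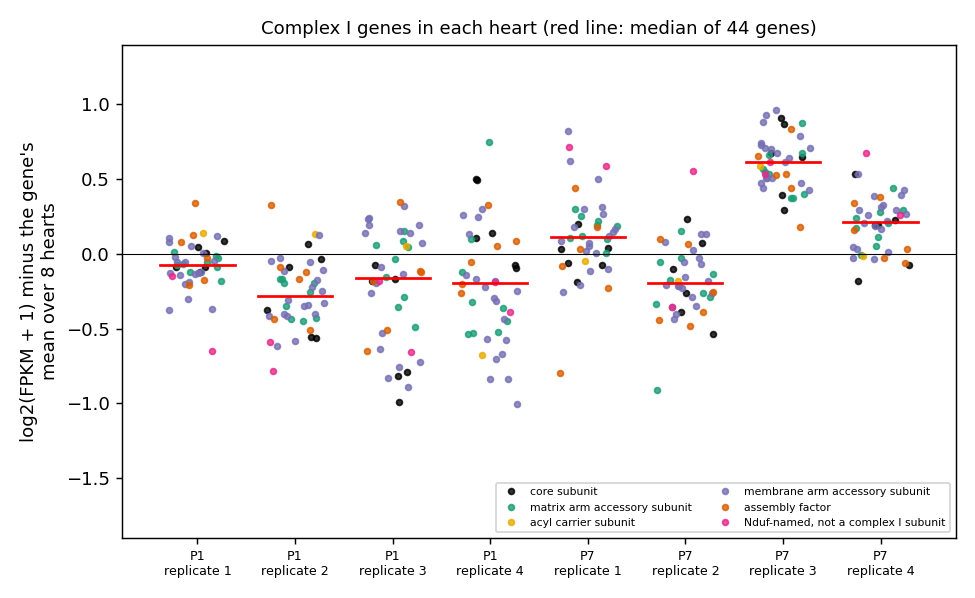
Log2(FPKM + 1) of 43 of the 44 genes in each heart minus the gene's mean over the 8 hearts, coloured by role, with a red line at the median of all 44 genes. P7 replicate 3 lies highest (median 0.61), and in P1 replicate 4 the points spread to both sides of 0.

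GC content of the transcripts moved with the stage difference. Across the 44 genes, the log2 difference and the GC content of the longest transcript had a Spearman correlation of 0.56, and across 11376 annotated loci at 1 FPKM or more in every heart of 0.60. These are descriptions across genes of the same 8 libraries. Ndufaf4, with the lowest difference, has the lowest GC content of the 44 (39.5%), and Ndufa4l2, with the highest difference, has the highest (60.7%). Ndufaf5 lies apart from this order, with 44.5% GC and a log2 difference of 0.71. After the correction for GC content, chosen with earlier results of these data known, the value of Ndufaf5 was 0.92 (limma adjusted p = 0.0477), which passed both thresholds, that of Ndufaf4 was -0.25, and the median of the 44 genes was 0.34. With this correction 2.15% of annotated tested loci were called higher and 0.15% lower, and of the 44 genes 1 higher and 0 lower. The part of GC content in the differences was not tested.

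**Figure D5:**
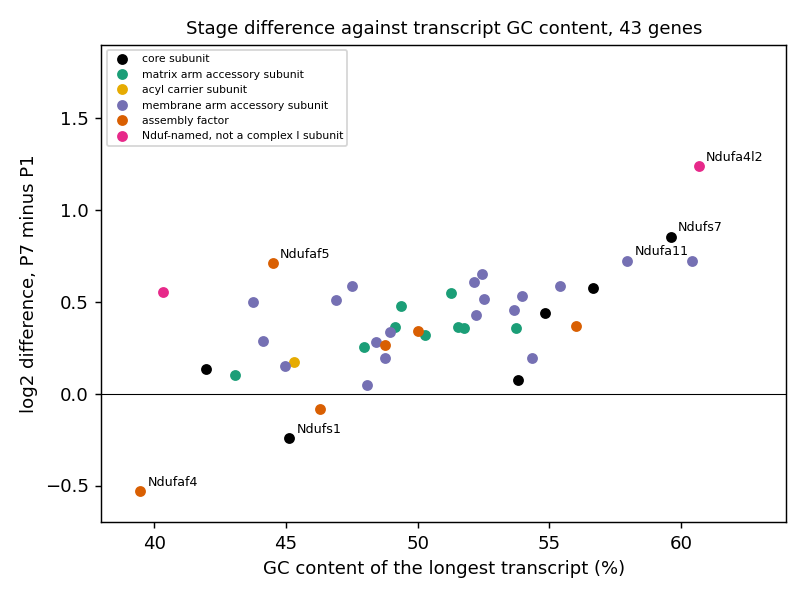
Log2 difference (P7 minus P1) of 43 of the 44 genes against the GC content of its longest transcript in percent, coloured by role, with 6 genes named. The points climb from Ndufaf4 at 39.5% GC to Ndufa4l2 at 60.7%, with Ndufaf5 above the other points of similar GC content.

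The loci lie on 16 chromosomes, with 2 genes on X (Ndufa1 and Ndufb11). Ndufs8 (3908836 to 3912775) and Ndufv1 (4007497 to 4012806) lie close together on chromosome 19. At 21 of the 44 another annotated gene overlaps the span given in the files, and for 13 a pseudogene or copy of at least 90% identity over 200 bases or more exists. Ndufb4 matches a copy at 100%, Ndufa12 at 99.5% and Ndufs5 at 99.4%, and the values of these genes are uncertain to the extent that reads were shared.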

How the data were processed

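RNA of 8 hearts (4 P1, 4 P7) was measured. The deposited files hold 1 FPKM value per locus, made by the authors' provider (Exiqon) from paired-end reads of ribodepleted RNA, aligned to GRCm38 with Ensembl release 70, summed and normalized. The aligner and the use of strand are not given in the sources used here. The files hold no counts, and the read totals of the libraries were not used here. Over short unannotated loci, the most common low product of FPKM and locus length was taken to stand for 1 fragment. On that assumption, 1 fragment on 1 kb was worth 0.0554 to 0.0852 FPKM in the hearts. FPKM is relative to all mapped fragments, so a few abundant loci move every value of a heart.

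Symbols were split at commas and taken without regard to case, leaving out those with -ps (0 found). Each of the 44 symbols had 1 locus. The members and gene lists were chosen with earlier results of these data known. Named with values were the genes called, the 2 most abundant of each role, the 3 largest differences not called, the 3 lowest, Ndufa4, Ndufa4l2, Ndufb6 and Ndufb10. Further genes were named after their values were seen. For 1 of the 44 genes, single values are not reported here, while counts and medians include it.

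Loci that reached 1 FPKM in any heart were fitted with limma 3.58.1 (R 4.3.3) on log2(FPKM + 1), lmFit and eBayes with a trend, all 8 hearts and no covariates. This scale understates changes of weakly expressed genes. The script was tested on simulated data. Exact permutation tests were two-sided on the means. Transcripts were compared with BLAST+ 2.17.0. Positions count from 1, while the files count starts from 0. GC content came from GENCODE M21 (85.9% of annotated tested loci). Alternatives were a pseudocount of 0.1, 2 other filters, median-ratio scaling, quantile normalization, calls on the adjusted p alone, a replicate block, eBayes without its trend, weights for sample quality, annotated or single-symbol loci, each heart left out, and GC correction (lowess, span 0.3), added later, as was the hypoxia response core. Other steps ran in Python 3.11.15 with scipy 1.17.1, statsmodels 0.14.6, numpy 2.4.6 and pandas 2.3.3.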

Additional observations from a re-analysis of the deposited data

Results flagged for a closer look

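In 8 of 90 sets of 4 hearts, 1 heart lay far from the other 3 of its stage, with a gap to its nearest neighbour above Dixon's 95% critical value. Chance flags about 1 set in 20, or 4.5 of 90. In P1, replicate 4 was far below the others for Ndufab1 (294 FPKM against 488 to 519) and Ndufaf4 (40.7 FPKM against 49.4 to 50.2) and far above them for Ndufs3 (207 FPKM against 180.4 to 183). P1 replicate 2 was far below for Ndufa4 (681 FPKM against 899 to 927). In P7, replicate 3 was far above for Ndufa6 (1077 FPKM against 649 to 720.2), Ndufb8 (1257 FPKM against 798 to 877) and Ndufs3 (253 FPKM against 179 to 183). P7 replicate 2 was far below for Ndufs4 (504 FPKM against 1169 to 1287).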

How the results depend on the processing

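Ndufa4l2 kept its direction under every alternative run and lost its call in 2, as given above. The number of complex I genes called higher, 1 with all hearts, was 5 when every heart had to reach 1 FPKM (Ndufa11, Ndufa4l2, Ndufaf5 and Ndufs7 among them), 3 among annotated loci alone (Ndufa4l2, Ndufaf5 and Ndufs7) and 6 with sample quality weights (the same 5 and Ndufa13). With GC correction it was again 1, then Ndufaf5. With 1 heart left out it was 0 to 3, with 0 without P1 replicate 2 and 3 without P1 replicate 4. The number called lower was 0 under every alternative run. Wherever more complex I genes were called than in the main fit, more loci were called in the whole series too. The number of all loci called, 1650 of 43172 in the main fit, was 2521 of 17960 among annotated loci and 3697 of 43172 with weights. It was 2711 when every heart had to reach 1 FPKM, and the share of loci under that filter was not computed. It was 497 with GC correction, 1079 without trend, 2554 with median-ratio scaling and 260 with no filter. With 1 heart left out it was 31 (without P1 replicate 2) to 3159 (without P1 replicate 4), and 595 or fewer without any heart other than P1 replicate 4.

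The replicate number as a block left the number of complex I genes called higher at 1. Deviations of same-numbered hearts from their stage means had correlation coefficients of -0.08, 0.16, -0.18 and -0.03. Those of hearts with different numbers ran from -0.22 to 0.15. The labels state no pairing, and these coefficients cannot exclude one.

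Median-ratio scaling moved the median log2 difference to 0.11 for the 44 genes, 0.64 for the pair Ndufa4 and Ndufa4l2, 0.093 for the matrix arm, -0.0044 for complex III and 0.040 for complex V. Quantile normalization moved that of the assembly factors to 0.040. Single genes changed sign, none of them called. With median-ratio scaling these were Ndufa8 (-0.067), Ndufa9 (-0.012), Ndufab1 (-0.092), Ndufb3 (-0.11), Ndufb5 (-0.22), Ndufc2 (-0.072), Ndufs3 (-0.19), Ndufs4 (-0.16) and Ndufv2 (-0.13). With quantile normalization they were Ndufa8 (-0.036), Ndufb3 (-0.050), Ndufb5 (-0.13), Ndufs3 (-0.17), Ndufs4 (-0.022) and Ndufv2 (-0.0072). With GC correction they were Ndufa8 (-0.038), Ndufaf1 (0.071) and Ndufs3 (-0.13), and with weights Ndufaf1 (0.0064). Leaving out 1 heart gave ranges across 0 for Ndufab1 (-0.024 to 0.26), Ndufaf1 (-0.27 to 0.050), Ndufb5 (-0.10 to 0.15), Ndufc2 (-0.055 to 0.33), Ndufs3 (-0.048 to 0.12), Ndufs4 (-0.048 to 0.42) and Ndufv2 (-0.060 to 0.29). The causes were not tested. Summing all loci of a symbol was not run, since each symbol has 1 locus. The depth of the libraries limits the precision of weakly expressed genes by an amount that FPKM alone does not give.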
